A study of Mus musculus with 6 samples.

Results

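The genes described here encode the proteasome, the protease complex that degrades ubiquitin-tagged proteins in the cytosol and nucleus. They were chosen by symbol: every gene whose symbol starts with Psma, Psmb, Psmc, Psmd, Psme, Psmf or Psmg, without the immunoproteasome subunits Psmb8, Psmb9 and Psmb10. Of 18193 genes that had a probe set with a single gene symbol, 46 met this rule. Each gene was read from its probe set with the highest mean signal over the 6 arrays. A mean signal above 164 was reached by 44 of the 46 and by 13043 of all genes, and these were the genes tested. The other 2 are core subunits of restricted tissues. Psma8, of the testis proteasome, had a mean signal of 78.9 and Psmb11, of the thymus proteasome, one of 115. The symbol rule also took in Psmc3ip, a meiotic recombination factor, and Psme3ip1, a binding partner of the activator Psme3, neither of which is a proteasome subunit. Psme2 had no probe set with a symbol of its own and was not measured.

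Fat of the NOD mouse, in which autoimmune loss of pancreatic beta cells leads to diabetes, was profiled on 6 Affymetrix arrays, 2 for each of 3 groups. Normoglycemic mice were females aged 10 weeks. Diabetic mice had a blood glucose level above 300 mg/dl on 3 consecutive days. The third group had received alpha-1-antitrypsin (AAT), a serum inhibitor of serine proteases, and had reverted to stable insulin independence. Age and sex are labelled for the normoglycemic group alone, and neither the fat depot nor the AAT dose is labelled. Nothing in the labels ties an array to a mouse of its own, so p-values cover only the spread among these samples, and that spread may be technical.

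In the 26S proteasome a barrel-shaped 20S core holds the proteolytic sites inside rings of beta subunits, and outer rings of alpha subunits form the gate. The 19S cap binds ubiquitin chains, removes them, and unfolds the substrate with a ring of ATPases before it enters the core. Assembly needs all subunits in fixed proportion, and their genes are known to be regulated together by the transcription factor Nfe2l1 when proteasome activity is short. In brown adipocytes this factor and proteasome activity are needed for heat production in the cold.

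The 6 arrays were alike in overall scale but not in control measures. For the beta-actin control, signal near the 3' end divided by signal near the 5' end gave 3.63 and 4.30 on the normoglycemic arrays, 15.2 and 15.5 on the diabetic arrays and 9.08 and 5.87 on the AAT-treated arrays. Degraded RNA raises this quotient. For the Gapdh control it was 0.91 and 0.95 on the normoglycemic, 2.46 and 4.63 on the diabetic and 2.31 and 0.79 on the AAT-treated arrays. Normoglycemic 1 (128550) and AAT-treated 2 (86286) had the brightest added hybridisation controls by mean signal, with 25159 to 48494 on the rest. Markers of fat were present: 8 of 10 adipocyte markers were kept, including Adipoq, Lep and Fabp4, and Plin1 and Cfd had no probe set with a single symbol. Of 11 marker lists, that of macrophages had all 10 markers kept and 8 of them higher in diabetic than normoglycemic fat, and its summed signal ran from 8073 to 8771 on the normoglycemic, 14226 to 29477 on the diabetic and 11625 to 16887 on the AAT-treated arrays. All 8 smooth muscle markers were higher in AAT-treated than diabetic fat, and their summed signal ran from 8166 to 32555, from 10731 to 15624 and from 62865 to 96494 in the same order. Summed adipocyte signal overlapped between all groups (355830 to 538720, 243090 to 403980 and 234800 to 327220) except that both AAT-treated arrays lay below both normoglycemic ones. In tissue RNA, fewer cells of a type and less RNA per cell cannot be told apart.

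To show what the promoters of these genes look like, the 100 bases before the start site are printed for the 6 members with lower signal in diabetic fat (unadjusted p under 0.05, below) that RefSeq's promoter table for GRCm38.p6 holds, and for the catalytic subunits Psmb5 and Psmb6, whose signal differed little. Capitals mark matches, on either strand, to TGACNNNGC or TGAGNNNGC (the antioxidant-response type of element that Nfe2l1 and Nfe2l2 bind with small Maf proteins), CCAAT (the NF-Y box), GGGCGG (the GC box) and CGGAAG (the core of ETS family sites, which was added after these stretches had been read).
Psma1, chr7:114276117-114276216, minus strand: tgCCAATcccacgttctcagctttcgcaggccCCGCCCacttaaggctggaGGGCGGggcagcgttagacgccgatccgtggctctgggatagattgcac
Psmc1, chr12:100110102-100110201, plus strand: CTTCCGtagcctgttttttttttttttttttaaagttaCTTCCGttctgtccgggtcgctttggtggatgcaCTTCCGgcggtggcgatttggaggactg
Psmd8, chr7:29180674-29180773, minus strand: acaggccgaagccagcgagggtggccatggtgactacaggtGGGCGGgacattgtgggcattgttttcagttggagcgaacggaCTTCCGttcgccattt
Psmd12, chr11:107479428-107479527, plus strand: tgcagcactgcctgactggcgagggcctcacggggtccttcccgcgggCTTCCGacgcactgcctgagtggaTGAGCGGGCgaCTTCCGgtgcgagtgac
Psmf1, chr2:151741311-151741410, minus strand: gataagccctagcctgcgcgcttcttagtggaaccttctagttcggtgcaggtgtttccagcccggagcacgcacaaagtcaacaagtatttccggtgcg
Psmg1, chr16:95990961-95991060, minus strand: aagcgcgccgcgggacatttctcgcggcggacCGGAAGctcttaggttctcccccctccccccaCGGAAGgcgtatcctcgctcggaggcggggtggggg
Psmb5, chr14:54617996-54618095, minus strand: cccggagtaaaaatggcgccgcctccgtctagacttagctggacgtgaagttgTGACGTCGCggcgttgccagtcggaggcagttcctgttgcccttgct
Psmb6, chr11:70525257-70525356, plus strand: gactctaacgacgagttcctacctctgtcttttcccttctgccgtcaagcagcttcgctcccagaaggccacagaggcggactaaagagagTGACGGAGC

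Over 250 bases before the start, the table held 37 of the 44 tested members. CGGAAG was present in 19 of them (51.4%), against 15.3% of all 27025 genes in the table. GGGCGG was present in 21 (56.8%), against 35.4% of all genes. The antioxidant-response letters were present in 13 (35.1%), against 25.7%, and CCAAT in 14 (37.8%), against 37.5%. Among the 6 members printed for their lower signal, 4 held CGGAAG and 1, Psmd12, held the antioxidant-response letters, which were found in 12 of the other 31. The matches describe these letters, and binding was not measured.

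The first comparison asked how diabetic fat differed from normoglycemic fat. Proteasome genes lay lower in diabetic fat at 10 of the 44 members (limma, unadjusted p under 0.05), and 0 lay higher at that level. The 10 were Psmd7, Psmd8 and Psmd12 of the 19S lid, the ATPase Psmc1, the core subunits Psma1, Psmb1, Psmb2 and Psmb7, the regulator Psmf1 and the assembly chaperone Psmg1. Among all genes tested, 9.90% had an unadjusted p under 0.05 in either direction, 4.62% in the lower and 5.27% in the higher direction, against 22.7% of the members in the lower one. By limma 0 members and 0 genes passed the adjusted threshold of 0.05 (0% of all genes, against 1291 at an unadjusted p under 0.05), and the smallest adjusted p of a member was 0.459. Both diabetic arrays lay below both normoglycemic arrays for 20 members (45.5%), against 24.5% of all genes, and above them for 7 (15.9%), against 20.2%. In all 27 of the 44 were lower (61.4%), against 53.6% of all genes. The median log2 difference of the members was −0.17, and that of all genes −0.055. With an offset of 16, 11 members had an unadjusted p under 0.05, 10 of them lower (9.74% of all genes in either direction). With robust estimation 10 members had one, 9 of them lower (9.99%). The count of 10 depended on single arrays. Without normoglycemic 1 it was 2, both lower, where 4.25% of all genes had such a p in either direction. Without normoglycemic 2 it was 5, with 3 of them lower, against 14.9% of all genes. Without diabetic 1 it was 4, all lower (5.71% of all genes), and without diabetic 2 it was 6, with 5 of them lower (5.87%).

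**Figure D1:**
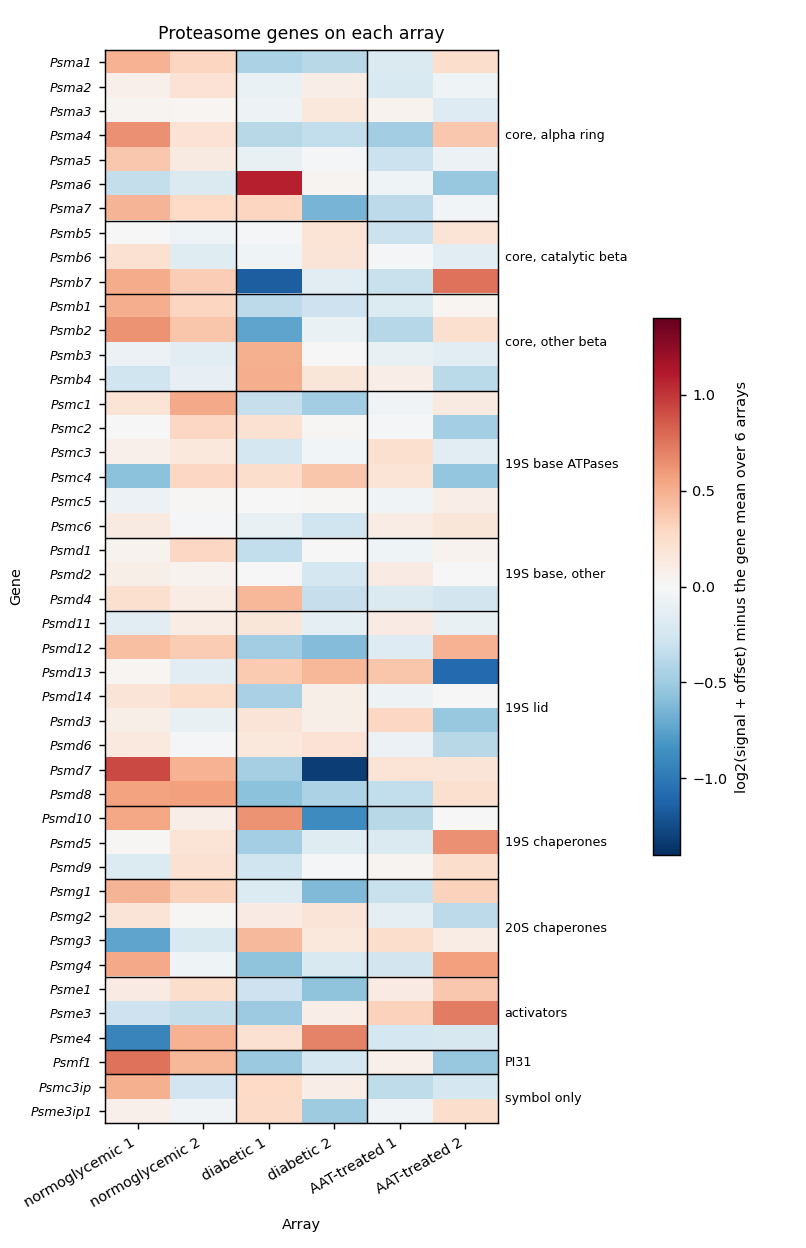
Each row is 1 of the 44 tested genes, ordered by role, and each column 1 array; the colour is log2(signal + offset) minus the gene's mean over the 6 arrays. The normoglycemic columns are mostly red (33 and 30 of 44 genes above their own mean) and the diabetic columns mixed (18 and 19 of 44).

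The largest difference was in Psmd7, a lid subunit that pairs with the deubiquitinase Psmd14. Its signal was 1320 and 953 on the normoglycemic arrays, 457 and 219 on the diabetic arrays and 760 and 757 on the AAT-treated arrays. All 3 groups were apart, with diabetic fat lowest. The log2 difference was −1.60 ± 0.38 (SE, n = 2 arrays per group; 3.03-fold lower; limma unadjusted p = 0.00269, adjusted p = 0.459). A second, much dimmer probe set of Psmd7 had signals of 296 and 49.9 on the normoglycemic and 283 and 224 on the diabetic arrays, and so had the opposite sign (0.61). With the median over both probe sets the difference of Psmd7 was −0.50 (limma unadjusted p = 0.268).

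Psmd8, the lid subunit that completes lid assembly, had signals of 2645 and 2685 on the normoglycemic arrays, 1167 and 1288 on the diabetic arrays and 1377 and 2079 on the AAT-treated arrays. The normoglycemic pair lay above the other 4 arrays. The log2 difference of diabetic from normoglycemic fat was −1.07 ± 0.32 (2.11-fold lower; limma unadjusted p = 0.00982, adjusted p = 0.481). Psmd12, a scaffold subunit of the lid, had signals of 2396 and 2284 on the normoglycemic arrays, 1241 and 1136 on the diabetic arrays and 1551 and 2499 on the AAT-treated arrays. Its diabetic arrays were the lowest pair and its AAT-treated arrays spanned the range above them. The log2 difference was −0.94 ± 0.33 (limma unadjusted p = 0.022, adjusted p = 0.481). Leaving out any 1 of the 4 normoglycemic and diabetic arrays kept the limma unadjusted p of Psmd7 and Psmd8 under 0.05, whereas that of Psmd12 was then 0.0531 to 0.0807.

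Of the 8 lid genes 4 were lower and 4 higher in diabetic fat. Psmd14, the deubiquitinase that cuts ubiquitin chains from substrates, had signals of 3156 and 3331 on the normoglycemic and 1997 and 2943 on the diabetic arrays (log2 difference −0.41 ± 0.32). Psmd11 differed by 0.05 ± 0.32, Psmd6 by 0.12 ± 0.31, Psmd3 by 0.15 ± 0.36 and Psmd13 by 0.48 ± 0.47, none of them with an unadjusted p under 0.05. In 3 of the 8 lid genes, Psmd3, Psmd6 and Psmd13, both diabetic arrays nevertheless lay above both normoglycemic ones.

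Of the 3 catalytic subunits of the core, 1 was among the 10. Psmb5, which carries the chymotrypsin-like site, had signals of 1923 and 1841 on the normoglycemic arrays, 1891 and 2201 on the diabetic arrays and 1549 and 2207 on the AAT-treated arrays, so that the groups overlapped. Psmb6, which carries the caspase-like site, had signals of 3754 and 2862, 3078 and 3660, and 3168 and 2906 in the same order, and also overlapped. Psmb7, which carries the trypsin-like site, had signals of 3337 and 2943 on the normoglycemic arrays, 996 and 2059 on the diabetic arrays and 1849 and 3971 on the AAT-treated arrays. Both of its diabetic arrays lay below both normoglycemic ones (log2 difference −1.09 ± 0.46; limma unadjusted p = 0.0458). The size of that difference was −0.59 without diabetic 1 and −1.58 without diabetic 2, and its limma unadjusted p was under 0.05 only in the latter when 1 of these 4 arrays was left out. With the hybridisation controls as a covariate it was −0.51 (limma unadjusted p = 0.249), and the limma unadjusted p was 0.0619 with no trend and 0.0546 with quantile normalization.

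**Figure D2:**
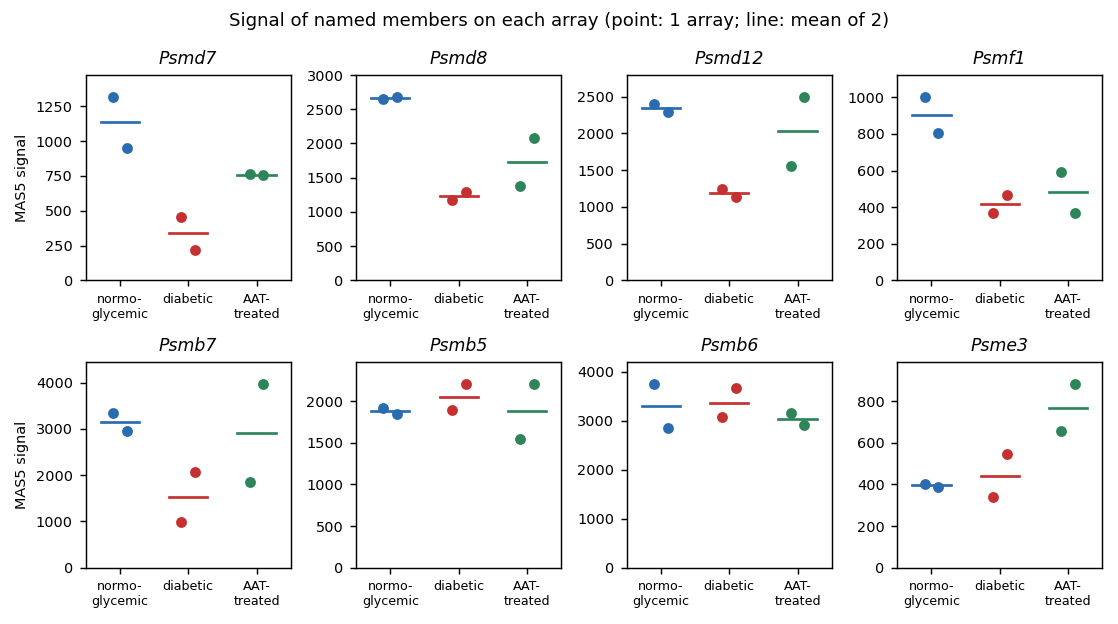
MAS5 signal (linear, from 0) of 8 members on each array; points are single arrays and lines the mean of 2. Psmd7, Psmd8, Psmd12, Psmf1 and Psmb7 show the diabetic pair below the normoglycemic pair, Psmb5 and Psmb6 show overlapping groups, and Psme3 shows the AAT-treated pair highest.

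Among the noncatalytic beta subunits, Psmb1 (−0.73 ± 0.31) and Psmb2 (−0.93 ± 0.37) were lower in diabetic fat at an unadjusted p under 0.05, and Psmb3 (0.36 ± 0.34) and Psmb4 (0.53 ± 0.36) had higher values that missed it. In the alpha ring 5 of 7 genes were lower, with a median of −0.31. Psma1 was lowest there at −0.81 ± 0.32, followed by Psma4 at −0.78 ± 0.38, and only Psma1 had an unadjusted p under 0.05. Psma6 went the other way, at 0.83 ± 0.44, with signals of 11370 and 12488 on the normoglycemic and 30494 and 14732 on the diabetic arrays. Both diabetic arrays lay above both normoglycemic ones, and the difference was 0.30 without diabetic 1 and 1.35 without diabetic 2.

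In the 19S base 4 of the 6 ATPases were lower in diabetic fat, with a median of −0.14. Psmc1 was the one with an unadjusted p under 0.05 (−0.76 ± 0.31), with signals of 2008 and 2553 against 1386 and 1229. Psmc5 was nearly level over all 6 arrays, from 1832 to 2087. The non-ATPase base subunits, which bind ubiquitin and its shuttles, were all slightly lower: Psmd1 by −0.33 ± 0.31, Psmd2 by −0.18 ± 0.30 and the ubiquitin receptor Psmd4 by −0.09 ± 0.36. None of these 3 differences exceeded its spread between arrays at p under 0.05.

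Assembly chaperones were mixed. The 20S chaperone Psmg1 was lower in diabetic fat (−0.80 ± 0.35), with signals of 1786 and 1607 against 1099 and 803. Its dimer partner Psmg2 differed by 0.05 ± 0.30 by its brightest probe set, but by −0.66 and −0.35 by its other kept ones. Psmg3 had the highest difference after Psma6, 0.77 ± 0.34, with signals of 335 and 515 on the normoglycemic, 858 and 681 on the diabetic and 731 and 658 on the AAT-treated arrays. Its normoglycemic pair was lowest, and its p just missed the unadjusted threshold. Psmg4, the partner of Psmg3, differed by −0.62 ± 0.40. The 19S chaperones Psmd5, Psmd9 and Psmd10 differed by −0.43 ± 0.37, −0.16 ± 0.34 and −0.44 ± 0.51.

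Psmf1 encodes PI31, which binds the core and inhibits it in vitro. Its signal was 1004 and 804 on the normoglycemic arrays, 370 and 465 on the diabetic arrays and 595 and 369 on the AAT-treated arrays. Both normoglycemic arrays lay above all 4 others. The log2 difference of diabetic from normoglycemic fat was −0.99 ± 0.35 (limma unadjusted p = 0.0217). With the median over its 4 kept probe sets the difference was −0.37 (limma unadjusted p = 0.278). By limma its unadjusted p was also 0.0955 without normoglycemic 1 and 0.11 without diabetic 1.

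The activators bind the core in place of the 19S cap. Psme1, a subunit of the interferon-inducible PA28 ring, had signals of 2771 and 3038 on the normoglycemic arrays, 2074 and 1694 on the diabetic arrays and 2756 and 3327 on the AAT-treated arrays. Its diabetic arrays were the lowest pair (−0.61 ± 0.31; limma unadjusted p = 0.0816). Psme3, the nuclear PA28 gamma, had signals of 404 and 389, 337 and 548, and 656 and 883 in the same order. Psme4, the PA200 activator, had signals of 751 and 2117, 1745 and 2454, and 1242 and 1270. Its normoglycemic arrays were far apart and overlapped those of both other groups. Of the 2 symbol-only members, Psmc3ip differed by 0.07 ± 0.35 and Psme3ip1 by −0.13 ± 0.36. The second probe set of Psmc3ip differed by −0.80, with signals of 1219 and 745 on the normoglycemic and 475 and 563 on the diabetic arrays.

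**Figure D3:**
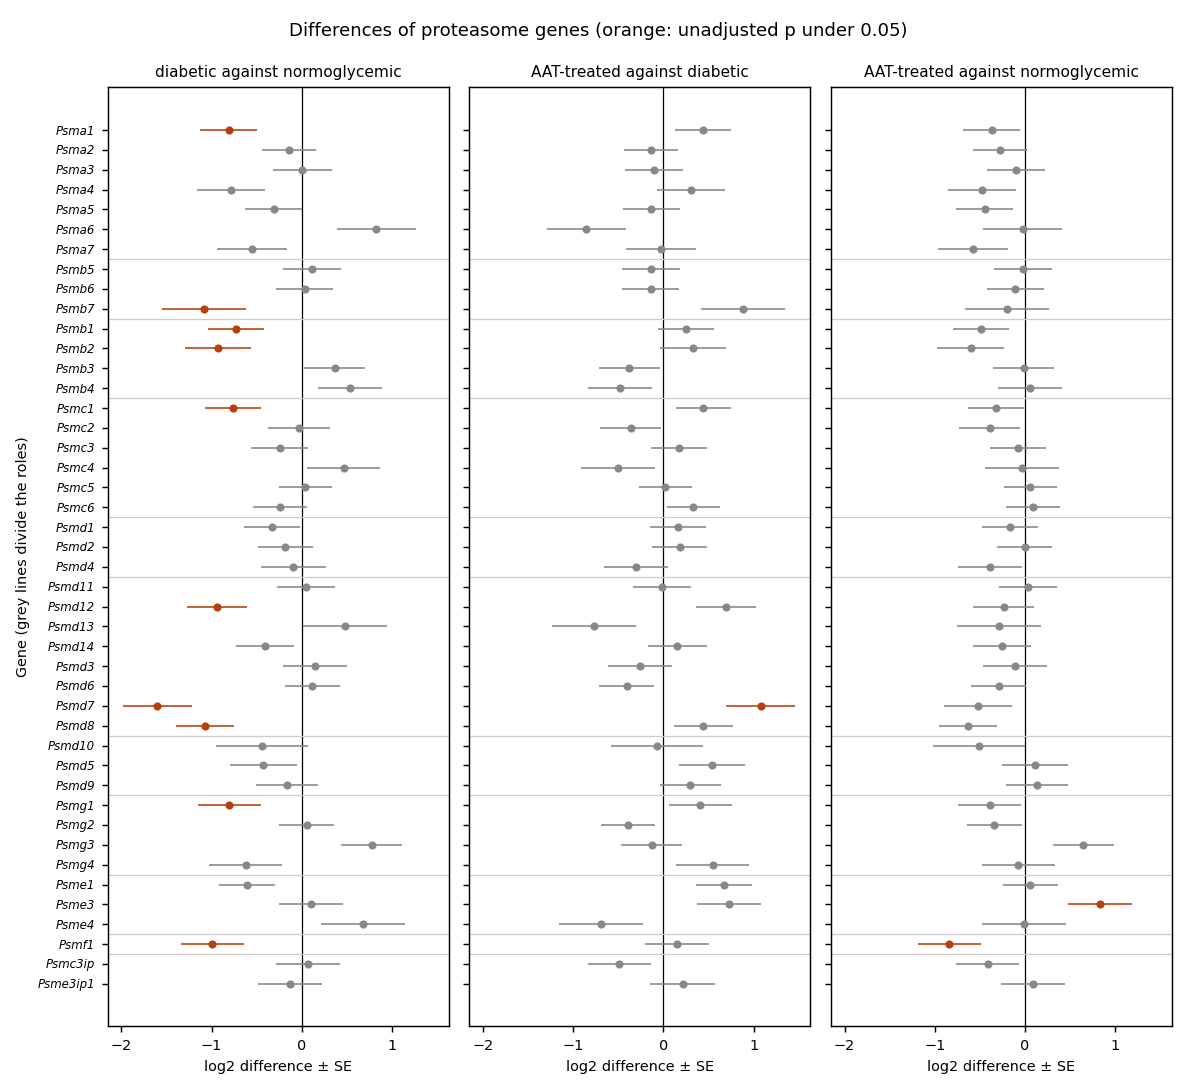
Log2 differences (points) with the moderated standard error (bars) of the 44 genes in the 3 comparisons, with genes in the same order by role; orange marks an unadjusted p under 0.05. Orange points number 10 in diabetic against normoglycemic fat, all below 0, and 1 and 2 in the other comparisons.

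Which probe set stood for a gene changed this picture. Of the 44 members 22 had a second kept probe set, and in diabetic against normoglycemic fat the second brightest lay below the brightest in 16 of them (72.7%), against 57.8% of 5468 genes with 2 or more kept probe sets. The median difference was −0.56 for the second brightest probe sets of the 22 members and 0.03 for the brightest, against −0.06 and 0.05 over all such genes. Psma6 was at 0.83 by its brightest probe set and −0.84 by the next. The pairs were 0.36 and −1.07 for Psmb3, 0.53 and −0.53 for Psmb4, 0.12 and −0.82 for Psmd6, −0.03 and −0.87 for Psmc2, and −0.09 and −0.99 for Psmd4. In the other direction, the pair was −0.81 and 0.01 for Psma1, −0.99 and −0.29 for Psmf1 and, as above, −1.60 and 0.61 for Psmd7. The sign differed between the 2 probe sets in 13 of the 22 members, against 2202 of the 5468 genes. The brightest probe sets of Psma6, Psmb4 and Psmc2 end in _x_at, the array maker's mark for probes that can match other transcripts.

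Without probe sets ending in _x_at or _s_at, 32 of 44 members were lower in diabetic fat, with a median of −0.32 against −0.08 for all genes, and 13 had an unadjusted p under 0.05, 12 of them lower, against 9.88% of all genes in either direction. With the median over all kept probe sets of a gene, 33 of 44 were lower, with a median of −0.37 against −0.08 for all genes. In that setting 10 members had an unadjusted p under 0.05, 9 of them lower, against 9.26% of all genes in either direction. The share of all genes that were lower was not counted under these settings. The beta-actin 3' to 5' ratio was highest on the diabetic arrays, and summed macrophage signal was higher there. Summed signal of the 6 of 7 erythroid and platelet markers with a single-symbol probe set was lower there. It was 9695 and 12230 on the normoglycemic, 2648 and 3329 on the diabetic and 10980 and 4077 on the AAT-treated arrays. Of the 5 kept markers 0 were higher in diabetic than normoglycemic fat. The part of these measures in the differences was not tested.

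**Figure D4:**
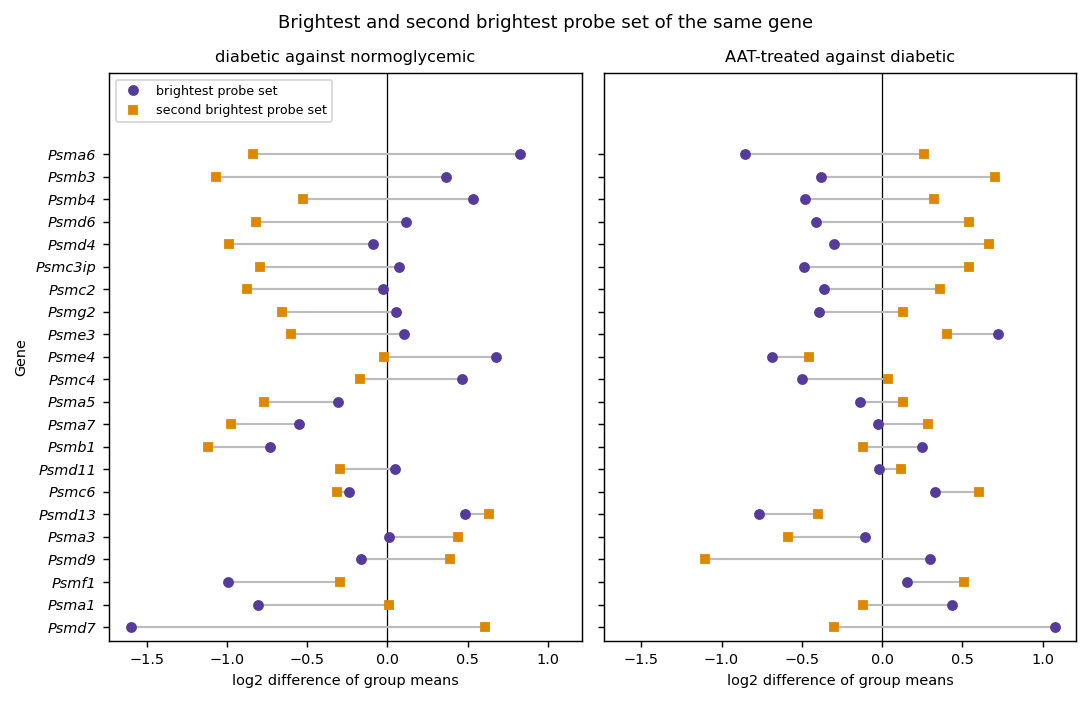
Log2 difference of group means by the brightest (circles) and second brightest (squares) probe set of the 22 members with 2 or more kept probe sets, for diabetic against normoglycemic fat (left) and AAT-treated against diabetic fat (right). On the left 16 squares lie below (left of) their circles (72.7%, against 57.8% of all such genes). On the right 6 do (27.3%, against 48.0%). Both panels share the diabetic arrays.

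The second comparison asked how AAT-treated fat differed from diabetic fat. It shares the diabetic arrays with the first. Members were divided in direction: in AAT-treated fat 23 were higher (52.3%, against 51.2% of all genes) and 21 lower (47.7%, against 48.8%), with a median of 0.09 against 0.01 for all genes. At an unadjusted p under 0.05 there was 1 member (2.27%), against 4.77% of all genes (2.94% higher and 1.83% lower). It was Psmd7, higher by 1.08 ± 0.38 (2.11-fold; limma unadjusted p = 0.0211, adjusted p = 0.961). Its second probe set differed by −0.30, and the median over both by 0.39 (limma unadjusted p = 0.379). By limma 0 members and 0 genes passed the adjusted threshold (0%, against 622 genes at an unadjusted p under 0.05). There were 4 members with such a p without AAT-treated 1, 1 of them lower (9.73% of all genes in either direction), 2 without diabetic 2, 1 of them lower (3.44%), and 0 without AAT-treated 2 (1.99%). The unadjusted p of Psmd7 by limma was 0.166 without diabetic 2, 0.0636 without AAT-treated 1 and 0.0609 without AAT-treated 2. Both AAT-treated arrays lay above both diabetic ones for 10 members (22.7%), against 17.9% of all genes, and below them for 9 (20.5%), against 15.9%.

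Of the members that were lower in diabetic than in normoglycemic fat, Psmb7 differed by 0.88 ± 0.46, Psmd12 by 0.70 ± 0.33, Psma1, Psmc1 and Psmd8 by 0.44 each (± 0.32, 0.31 and 0.32), Psmg1 by 0.41 ± 0.35, Psmb2 by 0.33 ± 0.37, Psmb1 by 0.25 ± 0.31 and Psmf1 by 0.15 ± 0.35. None of these passed. The activators Psme1 (0.67 ± 0.31) and Psme3 (0.72 ± 0.36) had both AAT-treated arrays above both diabetic ones, with unadjusted p of 0.06 and 0.0745 by limma. The lowest values of this comparison were those of Psma6 (−0.86 ± 0.44) and Psmd13 (−0.77 ± 0.47), also short of the threshold. Psmd13 had signals of 1407 and 1234, 1799 and 1943, and 1833 and 612 on the normoglycemic, diabetic and AAT-treated arrays, and its difference was −0.03 without AAT-treated 2 and −1.50 without AAT-treated 1.

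The third comparison asked whether fat of AAT-treated mice had the levels of normoglycemic fat. It shares the normoglycemic arrays with the first comparison and the AAT-treated ones with the second. Small lower values were common: 34 of 44 members (77.3%) were lower in AAT-treated fat, against 52.0% of all genes, and 10 were higher (22.7%), against 48.0%. Both AAT-treated arrays lay below both normoglycemic arrays for 17 members (38.6%), against 16.1% of all genes, and above them for 2 (4.55%), against 16%. The median was −0.19 against −0.03 for all genes. Leaving out any 1 of the normoglycemic and AAT-treated arrays gave 30 to 33 members lower. At an unadjusted p under 0.05 there were 2 members (4.55%), against 5.13% of all genes, 1 lower (1.72% of all genes) and 1 higher (3.41%). By limma 0 members and 0 genes passed the adjusted threshold (0%, against 669 genes at an unadjusted p under 0.05).

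All 7 alpha ring genes were lower in AAT-treated than in normoglycemic fat, from −0.58 ± 0.39 for Psma7 to −0.03 ± 0.44 for Psma6, with 4 of the 7 apart by group. In the lid 7 of 8 were lower, led by Psmd8 (−0.63 ± 0.32; limma unadjusted p = 0.0846). All 3 catalytic subunits were lower by amounts within their errors, −0.02 ± 0.32 for Psmb5, −0.11 ± 0.32 for Psmb6 and −0.20 ± 0.46 for Psmb7. Psmb2 differed by −0.60 ± 0.37 and Psmb1 by −0.48 ± 0.31. The ATPases ran from −0.39 to 0.09. Summed smooth muscle signal and the beta-actin 3' to 5' ratio were higher, and summed adipocyte signal lower, on both AAT-treated than on both normoglycemic arrays. All 5 mesothelium markers were also higher, with summed signals of 3846 and 2684 on the normoglycemic and 5437 and 7580 on the AAT-treated arrays. The Gapdh 3' to 5' ratio lay above both normoglycemic arrays on AAT-treated 1 (2.31) and below both on AAT-treated 2 (0.79). The part of these measures in the differences was not tested.

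The 2 members with an unadjusted p under 0.05 went in opposite directions. Psmf1 was lower by −0.84 ± 0.35 (limma unadjusted p = 0.0431, adjusted p = 0.923). Psme3 was higher by 0.83 ± 0.36 (1.78-fold; limma unadjusted p = 0.0468, adjusted p = 0.923), with both AAT-treated arrays above the other 4. The second probe set of Psme3, with signals of 464 and 534 in normoglycemic and 435 and 413 in AAT-treated fat, differed by −0.20, and the other kept probe sets of Psmf1 differed by −0.26, 0.22 and 0.13. Leaving out 1 array gave an unadjusted p by limma of 0.052 to 0.191 for Psme3, above the threshold for each of the 6 arrays, and of 0.0268 to 0.22 for Psmf1, below it only without AAT-treated 1.

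Over the 6 arrays, the median deviation of the members from their own mean was 0.12 and 0.14 on the normoglycemic, −0.08 and −0.03 on the diabetic and −0.07 and 0.01 on the AAT-treated arrays, on the log2 scale. For all genes it ran from −0.04 to 0.08. Diabetic 1 was the lowest of the 6 arrays for 12 members, diabetic 2 for 11 and AAT-treated 2 for 10, and normoglycemic 2 for 1. These arrays were also the highest for 8, 5, 10 and 6 members in that order. Normoglycemic 1 was the lowest for 5 and the highest for 12, and AAT-treated 1 for 5 and 3. The matching shares of all genes were not counted. The median absolute log2 difference between replicates of the members was 0.18 for the normoglycemic pair, 0.25 for the diabetic pair and 0.31 for the AAT-treated pair, against 0.46, 0.36 and 0.48 over all genes. Mean signals of the members ran from 460 (Psmd9) to 15461 (Psma6), whereas those of all genes tested began at 164. The part of brightness in this spread was not tested.

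Genes around the proteasome were read in the same fit. The immunoproteasome subunits, which replace the 3 catalytic ones under interferon, had no unadjusted p under 0.05. Between diabetic and normoglycemic fat Psmb8 differed by 0.26 ± 0.36, Psmb9 by −0.15 ± 0.39 and Psmb10 by 0.42 ± 0.32. Of 12 listed symbols of partners without a Psm name 9 were tested; 7 were lower in diabetic fat and none had an unadjusted p under 0.05. Among them were the core maturation factor Pomp (−0.49 ± 0.35), with signals of 4503 and 4815 on the normoglycemic and 2911 and 3721 on the diabetic arrays, and the lid subunit Sem1 (−0.14 ± 0.33). Of 10 listed symbols of ubiquitin shuttles and p97 8 were tested, 4 higher and 4 lower in diabetic fat, none of them at p under 0.05, and the p97 cofactor Nsfl1c was higher in AAT-treated than diabetic fat (0.87 ± 0.38; limma unadjusted p = 0.0493). Of 6 ubiquitin and activating enzyme genes only Uba6 was tested (−0.22 ± 0.31 in diabetic against normoglycemic fat).

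Of 7 listed regulators of proteasome genes 6 were tested. At an unadjusted p under 0.05, 3 were higher in AAT-treated than diabetic fat, against 2.94% of all genes. In diabetic against normoglycemic fat 1 was higher and 1 lower (5.27% and 4.62% of all genes). In AAT-treated against normoglycemic fat 1 was higher (3.41%). Nfe2l1, the factor that induces proteasome genes, had signals of 1969 and 3947 on the normoglycemic arrays, 3551 and 3436 on the diabetic arrays and 4536 and 2499 on the AAT-treated arrays, and differed by no more than 0.32 in any comparison (± 0.43). Nfe2l2, the oxidative stress factor of the same family, was higher in AAT-treated than diabetic fat (0.84 ± 0.33; limma unadjusted p = 0.0321), with signals of 2530 and 3157 against 1666 and 1441. The small Maf proteins are the binding partners of both. Maff had signals of 116 and 420 on the normoglycemic arrays, 92.5 and 142 on the diabetic arrays and 772 and 546 on the AAT-treated arrays. Its AAT-treated pair was highest (1.93 ± 0.53 against diabetic, limma unadjusted p = 0.00594). Against normoglycemic fat it differed by 1.24 ± 0.53 (limma unadjusted p = 0.0453). The diabetic signals of Maff were dim, near the offset of 74.5. Mafk was also higher in AAT-treated than diabetic fat (0.86 ± 0.33; limma unadjusted p = 0.0288), whereas Mafg was higher in diabetic than normoglycemic fat (1.01 ± 0.32; limma unadjusted p = 0.0122). Ngly1, which activates Nfe2l1 by removing its glycans, was lower in diabetic than normoglycemic fat (−0.76 ± 0.33; limma unadjusted p = 0.0474). No regulator passed the adjusted threshold.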

How the data were processed

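The deposited values are MAS5 signal intensities on a linear scale, 1 per probe set and array, per the submitters' processing notes; the MAS5 version is not given in the sources used here. Each array was scaled by a constant, as the mean without the lowest and highest 2% was 500 on every array, and this scaling was kept. Median signals lay between 176 and 272. Precision is limited by having 2 arrays per group. Of 45101 probe sets 34945 had 1 symbol in the platform annotation, 932 several and 9160 none, apart from 64 controls; 34741 matched the RefSeq gene table (GRCm38.p6) by identifier and 0 symbols changed.

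Values were taken as log2(signal + 74.5), the 25th percentile, which understates differences of dim genes. Genes with a mean signal above 164, the 40th percentile, entered a limma fit (version 3.58.1, R 4.3.3; 3 group means over 6 arrays, eBayes with trend, 2-sided, Benjamini-Hochberg adjustment over 13043 genes; 3 residual and 5.36 prior degrees of freedom). Errors are its moderated standard errors, and folds are on the offset log2 scale. The fit was run on data simulated with independent normal noise from its own variance estimates. That setting does not include differences in RNA quality between arrays, and no conclusion is drawn from it. An exact permutation test of 2 against 2 arrays cannot give a p below 0.333 and was not run. The members and lists were chosen with earlier results of these data known, so no list was tested. Signals are given on every array for the catalytic subunits, the activators, Psmf1 and the members with the smallest p in each direction of a comparison; Psmb1, Psmb2 and the others are given by their differences, and signals of Psmd14, Psmc1, Psmc5 and Psmg1 were added after their values were seen. Alternatives were another offset, no filter, quantile normalization, median centring, other probe set choices, no trend, robust estimation (statmod 1.5.0), the replicate number as a block, the hybridisation controls as a covariate, and leaving out each array.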

Additional observations from a re-analysis of the deposited data

How the results depend on the processing

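Leaving out 1 array gave 0 genes past the adjusted threshold in diabetic against normoglycemic and in AAT-treated against diabetic fat, and 0 to 3 in AAT-treated against normoglycemic fat (3 without normoglycemic 2); the lone array of a group was then assumed to vary like the others. The members' median log2 difference ran from −0.20 to −0.13, from 0.017 to 0.12 and from −0.22 to −0.19 in these 3 comparisons, and the members with an unadjusted p under 0.05 from 2 to 10, from 0 to 4 and from 0 to 2.

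With the median over probe sets the members' medians were −0.37 (diabetic against normoglycemic) and 0.16 (AAT-treated against diabetic). In AAT-treated against normoglycemic fat 0 members then had an unadjusted p under 0.05, against 4.84% of all genes. Without _x_at and _s_at probe sets the 3 medians were −0.32, 0.18 and −0.25. With quantile normalization they were −0.21 and −0.24 in the comparisons with normoglycemic fat. With no filter the first was −0.21, and 1 gene passed the adjusted threshold in AAT-treated against diabetic fat. The counts of members at an unadjusted p under 0.05 for AAT-treated fat were then 2 against diabetic and 1 against normoglycemic. Of all genes 4.47% and 5.34% had such a p in these comparisons. With no trend the counts were 6 in diabetic (9.1% of all genes) and 0 in AAT-treated (5.34%) against normoglycemic fat. With the hybridisation controls as a covariate 4 members had such a p in diabetic against normoglycemic fat, against 5.54% of all genes. With that covariate 1 gene passed the adjusted threshold in this comparison and 1 in AAT-treated against diabetic fat. The causes were not tested.

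With the replicate number as a block the counts of members were 6 in diabetic (6.86% of all genes) and 0 in AAT-treated (3.85%) against normoglycemic fat. Same-numbered arrays did not go together. Their deviations correlated at 0.08 (normoglycemic and diabetic), −0.51 (normoglycemic and AAT-treated) and −0.12 (diabetic and AAT-treated). By the −0.51, normoglycemic 1 went with AAT-treated 2, the arrays with the brightest hybridisation controls. The cause was not tested. Psma6 went from 0.83 to −0.84 in diabetic against normoglycemic fat with the median over probe sets (limma unadjusted p = 0.0385). That median was the value of its second brightest probe set, and the third of its 3 kept probe sets differed by 0.94. Psmd7, Psmd8, Psmd12, Psmf1 and Psmb7 in diabetic against normoglycemic fat, Psmd7 in AAT-treated against diabetic fat, and Psmf1 and Psme3 in AAT-treated against normoglycemic fat kept their sign under the alternatives run; the other members with an unadjusted p under 0.05 were not followed singly.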
